A study of Mus musculus with 6 samples.

Results

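Fibroblast growth factors (FGFs), their receptors and the Sprouty feedback genes were followed in primary mouse lung fibroblasts exposed to DKK1. The 10 genes described were chosen by symbol, as ligands made by lung mesenchyme (Fgf1, Fgf2, Fgf7, Fgf10 and Fgf18), receptors (Fgfr1, Fgfr2 and Fgfr3) and feedback genes (Spry2 and Spry4), out of 45706 genes in the table. All 10 were matched by their Ensembl identifiers and all 10 passed the filter on low counts. The cells came from lungs of wild-type mice that were digested with collagenase and trypsin, grown in serum-containing medium and then purified by a method the labels do not name. The control group held 3 samples, and the other group held 3 samples that received 30 ng/ml of recombinant mouse DKK1 over 24 hours. Strain, age, sex and the number of animals are not given in the labels, and nothing says whether the samples of a group came from separate animals or cultures, so p-values measure only the spread between these samples. DKK1 (Dickkopf-1) blocks canonical Wnt signalling by occupying LRP5 and LRP6, and the comparison asks which genes respond to it.

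Most FGFs are secreted proteins that bind receptor tyrosine kinases together with heparan sulfate and signal through the RAS-MAPK cascade. In the lung, Fgf7 and Fgf10 are made by mesenchymal cells and act on the epithelial form of the receptor encoded by Fgfr2, which makes them classic signals from fibroblast to epithelium. Sprouty proteins are induced by receptor tyrosine kinase signalling and dampen it.

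Library totals ranged from 22565917 to 34727102 expected counts, which are the read numbers that the program RSEM assigns to each gene and which need not be whole. The 8 fibroblast markers summed to between 9677 and 11770 CPM in the 6 libraries, which are counts per 1000000 counts of the library. Most of this was Col1a1, Col1a2 and Col3a1 (control means 5940, 2958 and 1393 CPM), while Lum was low (2.12 CPM). None of the 8 had an edgeR adjusted p under 0.05 in the unpaired fit. In the fit paired by replicate number, described below, 5 did, against 9.42% of all genes. Pdgfra and Dcn were higher, and Col1a1, Col1a2 and Thy1 were lower. Markers of other lung cells were also detected: the summed level of 9 epithelial markers was 41.9 to 128 CPM in control and 39.2 to 128 CPM in DKK1 libraries, and that of 6 endothelial markers 22.8 to 63.0 and 20.5 to 62.8 CPM. The 4 mesothelial markers summed to 9.73 to 28.1 CPM in control and 10.4 to 31.6 CPM in DKK1 libraries. For these lists the highest library of each group was replicate 3, which the first principal component (32.9% of the variance) also set apart in both groups. The 8 leukocyte markers summed to 404 to 804 CPM in control and 455 to 852 CPM in DKK1 libraries, with Cd3e at 0 in each library, and the members went both ways. Most of this sum was Lyz2, at 340 to 696 CPM in control and 370 to 722 CPM in DKK1 libraries. Cd14 rose with DKK1, from 9.31 ± 0.222 to 16.9 ± 1.18 CPM (SD, n = 3 each; edgeR adjusted p = 0.0028). Itgam, from 14.9 ± 4.94 to 31.5 ± 10.18 CPM with no overlap, was called higher in the fit paired by replicate number alone (edgeR adjusted p = 7.23e-08; unpaired 0.136). In that paired fit Adgre1 was also called higher (log2 fold change 0.54, edgeR adjusted p = 0.00179) and Csf1r lower (-0.25, adjusted p = 0.0364), while Ptprc, Cd68 and Lyz2 were not called in either fit. The 6 smooth muscle and pericyte markers summed to 793 to 831 CPM in control and 682 to 712 CPM in DKK1 libraries, with no overlap. All 6 had log2 fold changes below 0, and in the unpaired fit Myh11 alone was called (log2 fold change -0.30, edgeR adjusted p = 0.00387). In the paired fit 4 of the 6 were called lower (Myh11, Cspg4, Pdgfrb and Des), against 4.46% of all genes. The part of other cells in the results below was not tested. In these bulk samples fewer cells of a type and less RNA per cell cannot be told apart.

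Of the 10 genes, Fgf7 and Spry2 rose with DKK1 and none fell. Both were called, meaning an adjusted p under 0.05 in edgeR's quasi-likelihood test over the 14635 genes tested, where 0.895% of genes were called in either direction and 0.697% were called higher and 0.198% lower. The samples carry replicate numbers that the 2 groups share, and a second fit used this number as a block, so that each DKK1 library was set against the control library of the same number. In that paired fit 9.42% of all genes were called, 4.96% higher and 4.46% lower, and 4 of the 10 genes were called, all higher: Fgf7, Fgf10, Fgfr1 and Spry2. The median log2 fold change of the 10 genes was 0.08, against -0.001 over all genes tested, with 6 genes above 0 and 4 below. The levels of the groups did not overlap for 3 of the 10 genes (Fgf7, Fgf18 and Spry2), against 16.5% of all genes tested. In 8 of the 10 the change had the same direction in all 3 same-numbered pairs, against 41.8% of all genes tested. The 10 genes were chosen with earlier results of these data known, so these shares are a description.

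**Figure D1:**
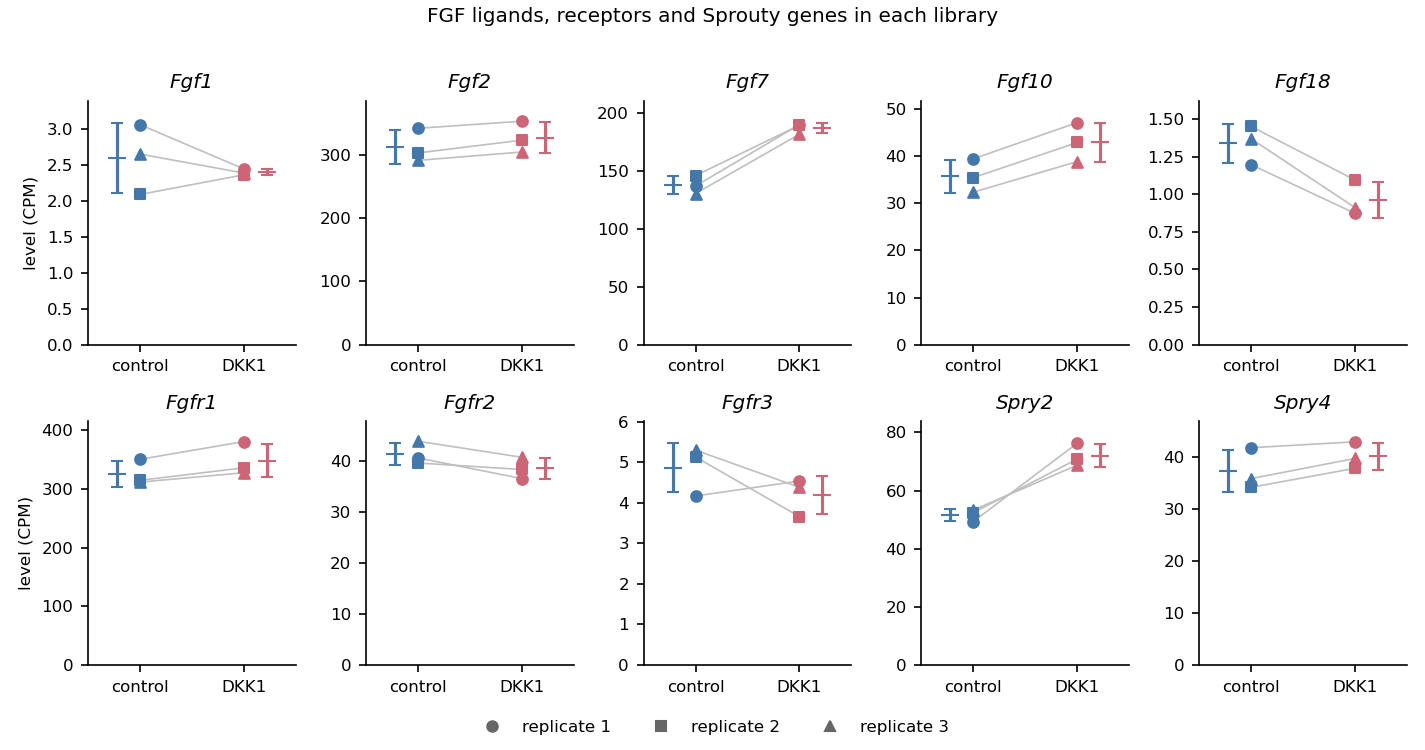
Level of each of the 10 genes in CPM (vertical axis, from 0) in the 3 control (blue) and 3 DKK1 (red) libraries; grey lines join libraries with the same replicate number, and bars at the sides show mean and SD. The groups are apart for Fgf7, Fgf18 and Spry2, while for Fgf10 they overlap although each line rises.

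The sequences just upstream of Fgf7, Fgf10 and Spry2, the 3 genes of the 10 with the largest increases among those called in either fit, are shown first for reference, with that of Spry1, a Sprouty gene that was lower with DKK1 in the paired fit. Each is the 250 bases before the RefSeq transcription start on assembly GRCm38.p6, written 5′ to 3′ on the strand of the gene. The windows are chr2:126034408-126034657 on the plus strand for Fgf7, chr13:118714449-118714698 on the plus strand for Fgf10, chr14:105896820-105897069 on the minus strand for Spry2 and chr3:37639697-37639946 on the plus strand for Spry1. The Fgf10 window lies inside the annotated gene, which has other transcripts that start upstream. Capitals mark CTTTG on either strand, the shared core of the sites of TCF/LEF factors, through which Wnt signalling acts on genes.
Fgf7: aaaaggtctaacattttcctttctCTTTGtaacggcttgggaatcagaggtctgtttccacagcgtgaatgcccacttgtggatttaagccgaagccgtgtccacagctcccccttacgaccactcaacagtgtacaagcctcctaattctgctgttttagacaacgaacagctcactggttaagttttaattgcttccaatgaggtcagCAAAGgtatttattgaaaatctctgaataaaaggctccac
Fgf10: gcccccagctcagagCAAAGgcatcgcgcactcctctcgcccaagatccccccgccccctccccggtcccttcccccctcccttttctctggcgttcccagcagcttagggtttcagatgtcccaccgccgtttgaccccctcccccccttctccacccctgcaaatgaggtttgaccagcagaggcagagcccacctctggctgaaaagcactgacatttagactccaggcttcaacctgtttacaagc
Spry2: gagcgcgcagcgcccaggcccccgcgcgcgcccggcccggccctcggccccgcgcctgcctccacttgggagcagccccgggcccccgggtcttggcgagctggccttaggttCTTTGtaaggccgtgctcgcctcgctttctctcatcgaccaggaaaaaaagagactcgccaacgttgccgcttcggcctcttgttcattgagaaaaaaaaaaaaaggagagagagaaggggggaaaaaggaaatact
Spry1: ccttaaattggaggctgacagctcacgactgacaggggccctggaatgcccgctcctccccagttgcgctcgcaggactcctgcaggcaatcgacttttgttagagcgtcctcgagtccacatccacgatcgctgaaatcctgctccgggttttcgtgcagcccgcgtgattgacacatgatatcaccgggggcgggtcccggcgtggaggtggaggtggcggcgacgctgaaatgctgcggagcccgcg

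The Fgf7 window held 2 matches, whose first bases lay 226 and 40 bases before the start. Fgf10 had 1 match at 235 bases and Spry2 had 1 at 137 bases before the start, and the Spry1 window had none. This core was searched after the longer form CTTTGA had given no match in these 4 windows, and 48.6% of all 32851 promoter windows of the same length hold it, so its presence is common. CTTTGA is in 13.8% of all windows. The letters searched for AP-1 (TGANTCA, 6.75% of all windows), ETS factors (CCGGAA, 12.03%) and the TATA box (TATAAA, 12.4%) also had no match in the 4 windows. G and C made up 43.6% of the Fgf7 window, against 61.2% for Fgf10 and 62.4% for each of Spry2 and Spry1. No binding was measured in this study, and a match is a description of the letters only.

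Fgf7 (ENSMUSG00000027208, chr2:126034658-126091185, plus strand; gene positions are on GRCm38), the keratinocyte growth factor that mesenchyme sends to epithelium, was the ligand that rose in both fits. Its level was 137, 146 and 131 CPM in control replicates 1, 2 and 3 and 190.2, 190 and 182 CPM in DKK1 replicates 1, 2 and 3. Each DKK1 library was above each control library. The mean went from 138 ± 7.79 to 187 ± 4.68 CPM (SD, n = 3 each), a 1.35-fold rise (log2 fold change 0.44, SE 0.05, 95% interval 0.32 to 0.55, edgeR adjusted p = 0.00742). The 3 same-numbered pairs gave log2 ratios of 0.47, 0.38 and 0.48. Its expected counts, from 2959 to 6589 per library, were whole numbers throughout, and no other gene overlaps its exons in the annotation.

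Fgf10 (ENSMUSG00000021732, chr13:118669791-118792115, plus strand), the mesenchymal ligand that drives branching of the lung buds, was 39.4, 35.4 and 32.4 CPM in the control and 47.1, 42.9 and 38.9 CPM in the DKK1 libraries. The groups overlapped, because control replicate 1 was above DKK1 replicate 3, but each DKK1 library was above the control library of its own number, by log2 ratios of 0.26, 0.28 and 0.26. Without the block the log2 fold change of 0.26 was not called (SE 0.09, 95% interval 0.06 to 0.47, edgeR adjusted p = 0.31). With the replicate block it was called, at the same size of 1.2-fold (SE 0.04, edgeR adjusted p = 0.000669). In DESeq2 with the block the Fgf10 call lay next to the threshold (adjusted p = 0.0497). A noncoding gene overlaps its exons on the opposite strand, and whether the counting used strand is not given in the sources used here. The ratio of Fgf7 to Fgf10 counts within a library, which does not depend on library scaling, was 3.88 ± 0.351 in control and 4.38 ± 0.325 in DKK1 cells (SD, n = 3 each; exact permutation test, two-sided, p = 0.3, where 0.1 is the smallest p that 3 against 3 allow).

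Fgf2 (ENSMUSG00000037225, chr3:37348346-37410108, plus strand), basic FGF, a mitogen of fibroblasts, stood at 342, 303 and 292 CPM in control and 354, 323 and 305 CPM in DKK1 libraries. The groups overlapped widely and the log2 fold change of 0.06 was not called in either fit (95% interval -0.10 to 0.23, edgeR adjusted p = 0.837; with the replicate block, 0.02 to 0.11 and adjusted p = 0.0815). None of the 6 libraries gave it a whole count, and the exons of Fgf2 overlap those of Nudt6 on the opposite strand and of a noncoding gene on the same strand, so its level is uncertain.

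Fgf18 (ENSMUSG00000057967, chr11:33117430-33147400, minus strand), a ligand with roles in lung and skeletal development, was measured at 1.20, 1.45 and 1.37 CPM in control and 0.872, 1.09 and 0.911 CPM in DKK1 libraries. Each DKK1 library was below each control library, but these levels rest on 21 to 41 counts. The log2 fold change of -0.48 was not called (SE 0.22, 95% interval -0.99 to 0.03, edgeR adjusted p = 0.52; in the paired fit, adjusted p = 0.299) and the interval spans 0. Fgf1 (ENSMUSG00000036585, chr18:38838673-38929472, minus strand), acidic FGF, which binds all the signalling FGF receptors, was also low, at 3.06, 2.09 and 2.65 CPM in control and 2.44, 2.36 and 2.38 CPM in DKK1 libraries. The DKK1 values of Fgf1 lay within the control range (log2 fold change -0.12, 95% interval -0.54 to 0.31, edgeR adjusted p = 0.897), and the sign turned to 0.02 without control replicate 1.

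Among the receptors, Fgfr1 (ENSMUSG00000031565, chr8:25513654-25575718, plus strand), the main FGF receptor of mesenchymal cells, was 350.4, 315 and 312 CPM in control and 381, 336 and 328 CPM in DKK1 libraries. The groups overlapped and the gene was not called without the block (log2 fold change 0.09, SE 0.07, 95% interval -0.06 to 0.24, edgeR adjusted p = 0.708). With the replicate block Fgfr1 was called, with a rise of 1.07-fold (log2 fold change 0.09, SE 0.02, edgeR adjusted p = 0.0123), and the 3 pairs gave log2 ratios of 0.12, 0.10 and 0.07. This call was lost without the pair of replicate 2 (adjusted p = 0.133) and in DESeq2 with the block (adjusted p = 0.136). A noncoding gene overlaps Fgfr1 exons on the opposite strand.

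Fgfr2 (ENSMUSG00000030849, chr7:130162451-133123350, minus strand), whose epithelial form binds FGF7 and FGF10, stood at 40.7, 39.6 and 43.9 CPM in control and 36.6, 38.4 and 40.8 CPM in DKK1 libraries. All 3 pairs had the lower value in the DKK1 library, but the gene was not called (log2 fold change -0.11, 95% interval -0.23 to 0.02, edgeR adjusted p = 0.573; in the paired fit, adjusted p = 0.149). Replicate 3 had the highest Fgfr2 level of each group. It also had the highest summed epithelial, endothelial, leukocyte and mesothelial markers. Between replicates 1 and 2, Fgfr2 and the epithelial sum differed in opposite directions in each group. The epithelial sum was 41.9 and 48.8 CPM in control and 43.3 and 39.2 CPM in DKK1 libraries. A link between Fgfr2 and these markers was not tested. The table holds 1 value per gene, so the epithelial and mesenchymal splice forms cannot be told apart, and 1 annotated Fgfr2 transcript runs into the locus of Ctbp2 on the same strand, with expected counts that were not whole in any library. Fgfr3 (ENSMUSG00000054252, chr5:33721674-33737068, plus strand), a receptor best known from cartilage growth, was low, at 4.17, 5.13 and 5.30 CPM in control and 4.54, 3.66 and 4.38 CPM in DKK1 libraries. Its groups overlapped and it was not called (log2 fold change -0.23, 95% interval -0.56 to 0.11, edgeR adjusted p = 0.677).

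**Figure D2:**
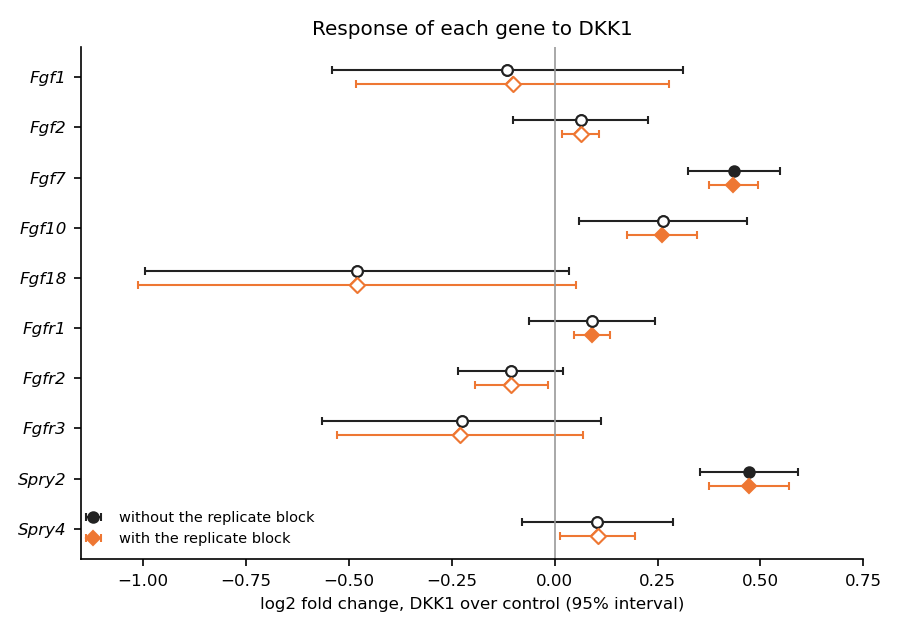
Log2 fold change of each gene, DKK1 over control, with its 95% interval, from the fit without (black) and with (orange) the replicate block; filled symbols mark an adjusted p under 0.05. Fgf7 and Spry2 are filled in both fits, Fgf10 and Fgfr1 in the paired fit alone, and the interval of Fgf18 is the widest.

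Spry2 (ENSMUSG00000022114, chr14:105891947-105896819, minus strand), an inhibitor of receptor tyrosine kinase signalling, had the smallest p of the 10 genes in the fit without the block, and Fgf7 had it in the paired fit. It was 49.3, 52.4 and 53.3 CPM in control and 76.3, 70.8 and 68.7 CPM in DKK1 libraries. Each DKK1 library was above each control library, and the mean rose 1.39-fold, from 51.7 ± 2.08 to 71.9 ± 3.89 CPM (SD, n = 3 each; log2 fold change 0.47, SE 0.05, 95% interval 0.35 to 0.59, edgeR adjusted p = 0.00696). Spry4 (ENSMUSG00000024427, chr18:38586247-38601415, minus strand), a second inhibitor of the same family, was 41.9, 34.2 and 35.9 CPM in control and 43.0, 37.9 and 39.8 CPM in DKK1 libraries. The Spry4 groups overlapped and the gene was not called in either fit (log2 fold change 0.10, 95% interval -0.08 to 0.29, edgeR adjusted p = 0.725; in the paired fit, adjusted p = 0.163). The ratio of Spry2 to Spry4 counts was 1.40 ± 0.191 in control and 1.79 ± 0.0716 in DKK1 cells (SD, n = 3 each), with no overlap (two-sided exact permutation p = 0.1, the smallest possible).

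Spry1, the other Sprouty gene measured here, was lower with DKK1. It was 84.9, 79.7 and 66.8 CPM in control and 69.7, 66.6 and 56.8 CPM in DKK1 libraries. The groups overlapped, each pair went down, and the log2 fold change of -0.26 was called with the replicate block (SE 0.03, edgeR adjusted p = 0.000105) but not without it (SE 0.10, adjusted p = 0.379). Spry2 counts were below Spry1 counts in the 3 control libraries, at ratios of 0.581, 0.657 and 0.797, and above them in the 3 DKK1 libraries, at 1.09, 1.06 and 1.21. The mean ratio was 0.679 ± 0.110 in control and 1.12 ± 0.0780 in DKK1 cells (SD, n = 3 each; two-sided exact permutation p = 0.1, the smallest possible). These counts were not corrected for gene length, so 1 does not mark equal levels. Divided by exon length, Spry2 was already above Spry1 in control replicate 3 (91.64 against 82.55), as in each DKK1 library. Spry2 was below Spry1 by that measure in control replicates 1 (85.7 against 105.9) and 2 (91.01 against 99.46). The 3 ratios given so far, and that of Fgf7 to Fgfr2, were chosen after the values were seen, and none of them reaches an adjusted threshold at this number of samples. Spry1 overlaps an annotated locus on the opposite strand, and none of the 6 libraries gave it a whole count.

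**Figure D3:**
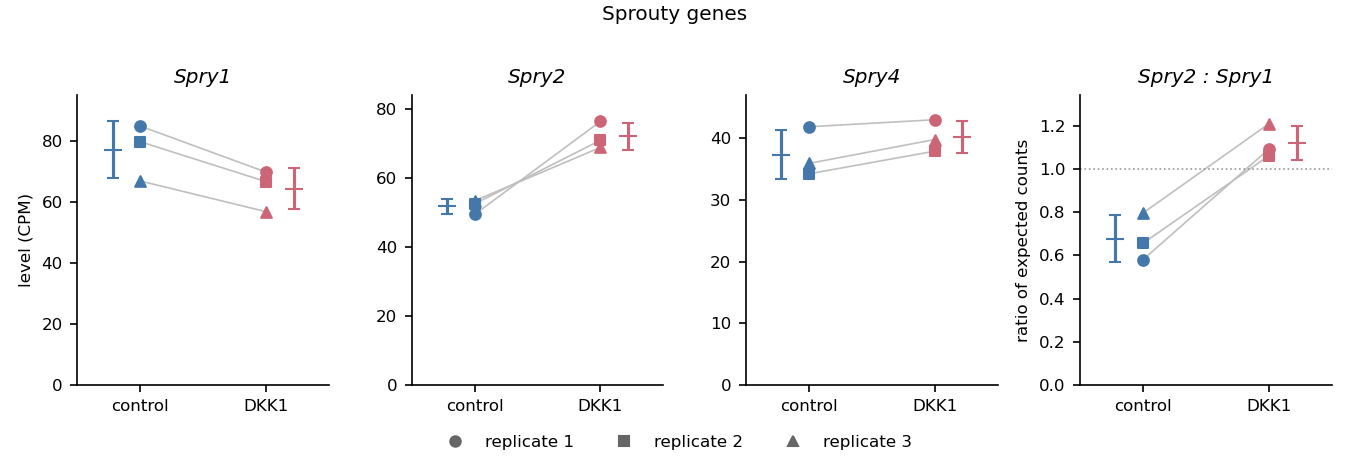
Levels of Spry1, Spry2 and Spry4 in CPM and the ratio of Spry2 to Spry1 expected counts in each library (vertical axes from 0; blue control, red DKK1, grey lines join the same replicate number, bars show mean and SD). The ratio lies below 1, the dotted line, in the 3 control libraries and above 1 in the 3 DKK1 libraries. Counts are not corrected for gene length, so the line does not mark equal levels of Spry2 and Spry1.

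The ratio of Fgf7 to Fgfr2 counts, a ligand and its receptor gene, was 3.37, 3.69 and 2.97 in control and 5.20, 4.94 and 4.46 in DKK1 libraries. The groups did not overlap (two-sided exact permutation p = 0.1, the smallest possible).

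The genes whose profile over the 6 libraries was most like that of Spry2 were Rsbn1, Sod2, Lgi2 and Odc1. Likeness was the root mean square difference of mean-centred log2 CPM, among the 13019 genes whose mean reached 1 CPM. It was 0.0414 for Rsbn1, 0.0423 for Sod2, which encodes the mitochondrial superoxide dismutase, 0.0534 for Lgi2 and 0.0594 for Odc1, which encodes ornithine decarboxylase of polyamine synthesis. Since Spry2 was chosen for its small p in the fit without the block, the changes of these genes with DKK1 are a description: Sod2 went from 40.5 ± 0.776 to 54.6 ± 2.53 CPM and Odc1 from 325 ± 13.99 to 453 ± 19.3 CPM (SD, n = 3 each).

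To compare levels between genes, counts were divided by the summed length of each gene's exons and scaled to the same sum in each library. By this per-length level, averaged over the 6 libraries, the order was Fgf7 (180.3), Fgf2 (169.9), Fgfr1 (122.9), Spry2 (107), Fgf10 (30.8), Spry4 (29.4), Fgfr2 (13.9), Fgf18 (3.49), Fgfr3 (2.28) and Fgf1 (1.65). The ranges over libraries overlapped between Fgf7 and Fgf2, between Fgfr1 and Spry2, between Fgf10 and Spry4 and between Fgfr3 and Fgf1. Compared within each library, Fgf7 and Fgf2 changed order between libraries, as did Fgf10 and Spry4, so their order is not set. Fgfr1 was above Spry2 and Fgfr3 above Fgf1 in each of the 6 libraries. For Fgfr1 and Spry2 the gap was small in DKK1 replicates 2 (122.2 against 121.8) and 3 (118 against 117.2). No test of the order was run. Between Fgf7 and Fgf2 the control means stood at 154 ± 9.39 and 167 ± 14.8, and the DKK1 means at 207 ± 6.94 and 173 ± 14.7 (SD, n = 3 each). The choice of length moved the order: with the longest transcript in place of all exons, Fgfr1 came first at 175 and Fgfr2 rose to 23.6, above Spry4 at 21.4, and Fgfr3 at 2.79 and Fgf18 at 2.77 were level. Under both lengths Fgf7, Fgf2, Fgfr1 and Spry2 were the 4 highest and Fgf18, Fgfr3 and Fgf1 the 3 lowest.

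**Figure D4:**
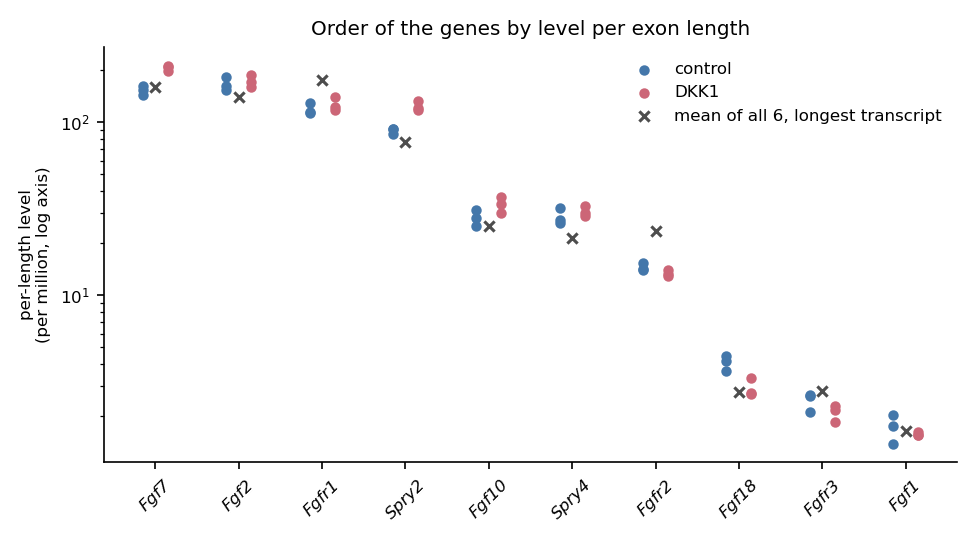
Per-length level of each gene (log axis) in the 3 control (blue) and 3 DKK1 (red) libraries, ordered by the mean of all 6; crosses show that mean when the longest transcript is used as the length. The points fall into a high set of 4 genes, a middle set of 3 and a low set of 3. The crosses of Fgfr1, Fgfr2 and Fgfr3 lie above their points.

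The other genes of the FGF system were taken from lists by role. Of 17 other genes of the FGF family, not all of which encode secreted ligands, 7 were expressed enough to test. Fgf4, Fgf6, Fgf8 and Fgf20 had 0 counts in each library, where 3 counts, the limit that a count of 0 allows, correspond to 0.0864 to 0.133 CPM. None of the 7 was called by edgeR without or with the replicate block, nor by DESeq2 or limma-voom without it, and 1 of 7 had an unadjusted p under 0.05 in edgeR, against 10.6% of all genes tested. Their median log2 fold change was -0.09. Fgf11, an intracellular member of the family and the highest of this list by per-length level over all 6 libraries (1.58), was 1.37 ± 0.313 CPM in control and 1.29 ± 0.0732 CPM in DKK1 cells (SD, n = 3 each; log2 fold change -0.09, edgeR adjusted p = 0.955). Its place is not set: Fgf23 stood at 1.56 by the same measure and at 2.13 against 1.53 for Fgf11 in DKK1 libraries, and by the longest transcript Fgf13 (1.46) was above Fgf11 (1.15).

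Fgf23, a hormone of bone that governs phosphate, was the gene of this list with the unadjusted p under 0.05 and was singled out after its values were seen. It held 0.399, 0.531 and 0.574 CPM in control and 1.36, 1.30 and 0.564 CPM in DKK1 libraries, from 9 to 45 counts. DKK1 replicates 1 and 2 were above the controls and DKK1 replicate 3 was within their range. The log2 fold change of 1.11 was not called (SE 0.38, edgeR adjusted p = 0.311; in the paired fit, adjusted p = 0.0784); without the pair of replicate 3 it was 1.48 and called in the paired fit (adjusted p = 0.0324).

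Of 9 other receptors and co-receptors 6 were tested, and 0 were called by edgeR in either fit or had an unadjusted p under 0.05 without the block; DESeq2 and limma-voom without the block also called 0. Their median log2 fold change was -0.02. Flrt2, a membrane protein of the FLRT family that can bind FGF receptors, was the highest by per-length level (72.6) and was 155 ± 9.81 CPM in control and 156 ± 11.7 CPM in DKK1 cells (SD, n = 3 each; 95% interval of the log2 fold change -0.14 to 0.14). Fgfr4, the receptor not among the 10 genes, had 17 to 35 counts per library.

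All 25 genes for heparan sulfate carriers and enzymes were tested. None was called without the block, by edgeR, DESeq2 or limma-voom, where 4 of 25 had an unadjusted p under 0.05 in edgeR against 10.6% of all genes tested, and the median log2 fold change was -0.03. With the replicate block 8 of 25 were called, against 9.42% of all genes, 4 higher and 4 lower; leaving out the pair of replicate 1, 2 or 3 left 6, 4 and 5. Sdc4, a transmembrane carrier, was 145.0, 167 and 145 CPM in control and 175, 189 and 172 CPM in DKK1 libraries, with no overlap (log2 fold change 0.23, edgeR adjusted p = 0.238; in the paired fit, adjusted p = 8.04e-05). Sulf1, an enzyme that removes sulfate groups that FGFs need for binding, was 237 ± 20.9 CPM in control and 278 ± 19.6 CPM in DKK1 cells (log2 fold change 0.22, edgeR adjusted p = 0.29; in the paired fit, adjusted p = 0.000388). Its relative Sulf2 was called at 0.15 with the block (edgeR adjusted p = 0.0181), as was Sdc1, named after its values were seen. The Sulf2 call was lost without any 1 of the 3 pairs (adjusted p = 0.0612 to 0.0951) and in DESeq2 with the block (adjusted p = 0.455). In DESeq2 with the block the 3 calls of this list were Sdc4, Sulf1 and Gpc3.

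The carriers called lower in the paired fit were the glypicans Gpc3 and Gpc4 and perlecan, while the other glypicans of the list were not called in either fit. Gpc3, a glypican, was 57.5, 50.5 and 39.5 CPM in control and 43.9, 40.3 and 33.8 CPM in DKK1 libraries; the groups overlapped while each pair went down (log2 fold change -0.32, edgeR adjusted p = 0.459; in the paired fit, adjusted p = 0.000179). Gpc4, the list's highest gene by per-length level (308), and Hspg2, which encodes perlecan of the basement membrane, had log2 fold changes of -0.09 and -0.13 (edgeR adjusted p = 0.0218 and 0.00583 with the block, 0.68 and 0.625 without). Hspg2 lost the call in the paired fit once the trend of each library against GC content and length was removed. Ndst1, an enzyme that adds sulfate to the growing chain, was called lower with the block at -0.13 (edgeR adjusted p = 0.0104). Leaving out a pair took the adjusted p up to 0.225 for Gpc4, 0.133 for Hspg2 and 0.0729 for Ndst1.

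The 25 relay genes, from adaptor proteins to the MAP kinases, were all tested and lay between log2 fold changes of -0.12 and 0.12, with a median of -0.04, 7 above 0 and 18 below. None was called by edgeR, DESeq2 or limma-voom without the block, and 3 of 25 had an unadjusted p under 0.05 in edgeR, against 10.6% of all genes tested. With the replicate block 2 of 25 were called, a share near the 9.42% of all genes: Map2k1, which encodes the kinase MEK1, at 0.12 (edgeR adjusted p = 0.00563) and Nras, a RAS gene, at -0.12 (adjusted p = 0.0146). Neither was called in DESeq2 with the block or without the pair of replicate 2, and 3 relay genes were called without the pair of replicate 1. Akt1, the highest relay gene by per-length level (413), was 475 ± 3.67 CPM in control and 465 ± 2.95 CPM in DKK1 cells (SD, n = 3 each; edgeR adjusted p = 0.74).

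Of 19 other feedback and target genes 18 were matched and tested, with a median log2 fold change of 0.01, 11 above 0 and 7 below. Ier3, an immediate early gene, was called and rose from 98.3 ± 5.63 to 153 ± 11.1 CPM (SD, n = 3 each), with 100.4, 91.9 and 103 CPM in control and 165, 143 and 151 CPM in DKK1 libraries and no overlap (log2 fold change 0.64, SE 0.06, edgeR adjusted p = 0.00337). With the replicate block 5 of 18 were called, against 9.42% of all genes, 3 higher (Ier3, Egr1 and Phlda1) and 2 lower (Spry1 and Dusp4). Egr1, an immediate early transcription factor, was 111, 135 and 99.5 CPM in control and 148, 194 and 123.3 CPM in DKK1 libraries; the groups overlapped, and each pair went up (log2 fold change 0.42, edgeR adjusted p = 0.392; in the paired fit, adjusted p = 3.86e-06). Phlda1 was 213 ± 16.2 CPM in control and 250 ± 10.96 CPM in DKK1 cells with no overlap (log2 fold change 0.23, edgeR adjusted p = 0.15; in the paired fit, adjusted p = 4.11e-05), and DESeq2 without the block called it too (adjusted p = 0.0211). Dusp4, a phosphatase of MAP kinases, was 161 ± 20.7 and 143 ± 16.7 CPM (SD, n = 3 each; log2 fold change -0.18, edgeR adjusted p = 0.61; in the paired fit, adjusted p = 0.000321).

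Among the other genes of this list, 3 picked after their values were seen were not called in either fit. Dusp6, a phosphatase of ERK, was 90.2 ± 10.6 CPM in control and 91.9 ± 8.45 CPM in DKK1 cells (SD, n = 3 each; 95% interval of the log2 fold change -0.19 to 0.23). The ETS factors Etv4 and Etv5 were 28.9 ± 1.57 and 33.7 ± 1.57 CPM in control and 28.4 ± 1.52 and 32.3 ± 2.12 CPM in DKK1 cells, with 95% intervals of -0.17 to 0.10 and -0.21 to 0.08.

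**Figure D5:**
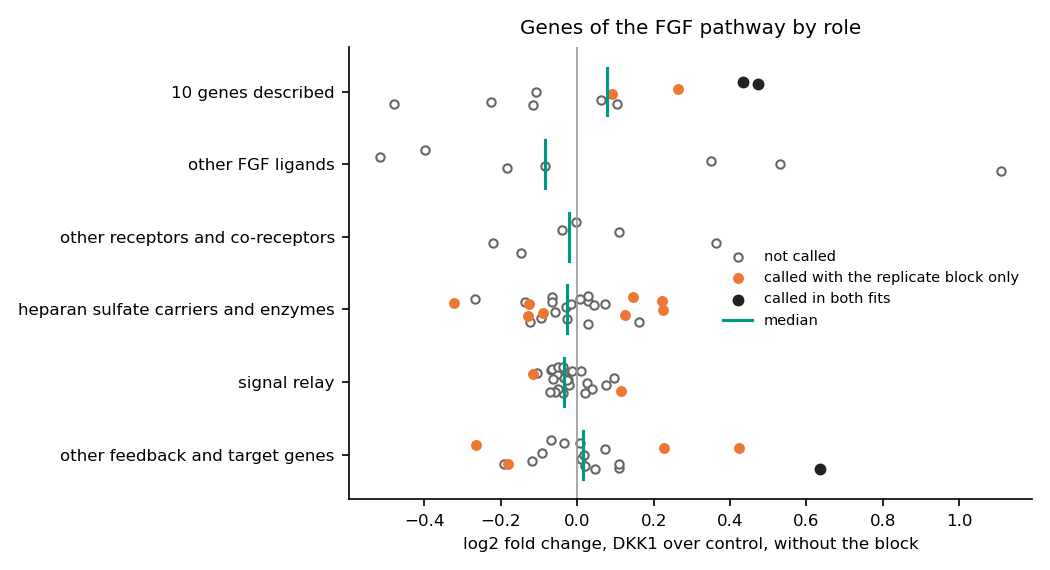
Log2 fold change (DKK1 over control, fit without the block) of each tested gene, in rows by role; black points were called in both fits, orange points with the replicate block alone, open points in neither, and green bars mark medians. The relay genes lie within 0.12 of 0, and the called points on the right are Fgf7, Spry2 and Ier3.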

How the data were processed

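The deposited table holds unscaled expected counts per gene for 3 control and 3 DKK1 libraries, judging from its values. STAR, RSEM, edgeR 4.2.1 and the builds GRCm38 and mm10 are named without role in the submitters' processing notes; the annotation release, strandedness and any filter are not given in the sources used here. Symbols were found for 45143 of 45706 identifiers. Positions, exon lengths and overlaps came from GENCODE M21 (GRCm38), and upstream sequences from RefSeq (GRCm38.p6), which held 7 of the 10 genes.

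Rounded counts went into edgeR 4.0.16 under R 4.3.3 (filterByExpr with a minimum count of 10, TMM scaling, quasi-likelihood F test, two-sided, Benjamini-Hochberg adjustment over 14635 genes), with group as the only term. CPM are counts scaled to the library total. The standard error is the size of the log2 fold change over the root of F, and 95% intervals use the t distribution. Floors and intervals cover counting error and sample spread only, since PCR copies were not marked. The test was tested on simulated data in which same-numbered samples shared no effect, so that run cannot speak to the pairing.

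Replicate numbers come from the sample titles. Deviations from group means of same-numbered samples correlated across genes at 0.27, 0.23 and 0.41, so the numbers were taken as pairs and the block is given where it changes a call. Alternatives were other scalings and filters, DESeq2 1.42.0, limma-voom (limma 3.58.1), removal of GC and length trends, leaving out samples or pairs and, added after seeing the data, leaving out replicate 3 of both groups without the block and another gene length.

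The 10 genes and the lists were chosen with earlier results of these data known. Of each other list, the text names genes called without the block, up to 3 each way called with it, and the highest per length; Fgf23, Fgfr4, Sdc1, Dusp6, Etv4, Etv5, Fgf13 and the single marker genes were named after their values were seen.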

Additional observations from a re-analysis of the deposited data

How the results depend on the processing

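Fgf7 and Spry2 stayed called in each alternative run for them, with log2 fold changes of 0.38 to 0.48 and 0.40 to 0.52, as did Ier3 in those run for it (0.58 to 0.68). Leaving out 1 library took the edgeR adjusted p up to 0.0498 for Fgf7, next to the threshold, and up to 0.0387 for Spry2. The count of called genes among the 10 was 2 in each fit without the block, 4 with the replicate block, 4 with the block once trends against GC content and length were removed, 3 with the block in DESeq2, and 3 to 4 with the block when a pair was left out. Over all genes, the 131 calls (102 higher, 29 lower) became 329 without a low-count filter, 289 in DESeq2, 1379 with the replicate block (726 higher, 653 lower), 558 with the block in DESeq2 and 1343 with the block and the trends removed. Leaving out 1 library gave 36 to 139 calls. The counts were 51, 36 and 107 without control replicate 1, 2 and 3. They were 44, 57 and 139 without DKK1 replicate 1, 2 and 3. Leaving out a pair in the paired fit gave 612 to 1312 (1059 without replicate 3). Leaving out replicate 3 of both groups without the block gave 149 calls, of which 83 were among the 131. The heparan sulfate list, with 0 calls, had 8 with the block, 3 with the block in DESeq2, 8 with the block and trends removed, and 4 to 6 when a pair was left out. The relay list, with 0 calls, had 2 with the block, 0 with the block in DESeq2, 2 with the block and trends removed, and 0 to 3 when a pair was left out. The other feedback and target genes, with 1 call, had 2 without a low-count filter, 2 in DESeq2, 5 with the block, 5 with it in DESeq2, 5 with it and the trends removed, and 5 to 6 when a pair was left out. The other genes of the FGF family, with 0 calls, had 1 in the paired fit without replicate 3. Signs turned only in genes not called: Fgf1 (-0.25 to 0.0186 without 1 library; 0.0167 in the paired fit without replicate 1), Fgf11 (-0.265 to 0.0519; 0.0400 in the paired fit without replicate 3) and Flrt2 (0.0028 with library totals, 0.0005 without a filter, -0.058 to 0.0429 without 1 library, 0.0294 in the paired fit without replicate 2). With the longest transcript as the length, per-length levels were 159 for Fgf7, 140.2 for Fgf2, 175 for Fgfr1, 77.5 for Spry2, 25.1 for Fgf10, 21.4 for Spry4, 23.6 for Fgfr2, 2.77 for Fgf18 and 2.79 for Fgfr3. Apart from per-length levels, which move with the length by definition, the cause of these differences was not tested. Leaving out libraries changes both the number of samples and which samples remain. With 3 samples a group, and 21 to 41 counts for Fgf18, the low genes have wide intervals.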
